A study of Mus musculus with 6 samples.

Results

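The 10 genes described here act in the building, filling and movement of melanosomes, the pigment organelles of melanocytes, and were read in B16F10 melanomas grown in the footpad or the flank skin of mice. They were chosen by symbol from the 45777 genes of the deposited count table, for their place in melanosome biogenesis and transport, and all 10 were found: Rab27a, Mlph, Myo5a, Rab38, Rab32, Gpr143, Atp7a, Gpnmb, Slc24a5 and Hps4. Melanosomes are lysosome-related organelles. They are built from endosomes, receive melanin enzymes and transporters through sorting machinery that includes RAB32, RAB38 and the BLOC complexes, and are then moved along actin in the cell periphery by a complex of RAB27A, melanophilin (MLPH) and myosin Va (MYO5A). Loss of a member of that transport complex dilutes coat color in mice, since pigment is made but stays near the nucleus.

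B16F10 is an established mouse melanoma line that makes melanin, and the study asked how gene expression differs between tumors under the foot, which bears weight, and tumors of the flank. The series holds 3 footpad and 3 flank tumors, each read as 1 library of total RNA. Hosts of both groups carried the genotype Foxn1-/- and were 8 weeks old according to the labels, and no drug or other agent is named for either group. Foxn1-/- mice lack a thymus and have few T cells. In these libraries 2 of the 8 listed T cell markers, Cd3d and Cd3g, had 0 reads in all 6 tumors. The other listed T cell markers had reads in at least 1 tumor. The study's methods describe B16F10 grafts in C57BL/6J mice as well and do not name the host of the sequenced tumors. All tumors came from this single cell line. The study describes grafts placed in the flank and the footpad of a mouse at the same time. It gives n = 3 mice for its comparison of selected genes between the sites. The tumors may therefore be 3 pairs, but the labels do not say which footpad and flank tumor shared a mouse. The main tests treat the tumors as unpaired, and p-values measure the spread between these 6 tumors.

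Depth was between 46529649 and 66364366 reads counted on genes per tumor, and the least counted of the 10 genes in any tumor, Gpr143 in footpad replicate 1, still had 472 reads. Levels are given as CPM, counts relative to library size after scaling by TMM, a method that makes libraries of different composition comparable. Together, the 10 genes made up between 0.536% and 0.813% of reads in each library. The melanocyte list of 7 genes summed to 9802 to 17943 CPM in footpad tumors and 14350 to 24942 CPM in flank tumors, with Tyrp1, an enzyme of melanin synthesis, highest in CPM, so the labelled tissue had its defining markers. Markers of some other cells differed between the sites, and edgeR gave 6 of the 8 fibroblast genes an adjusted p under 0.05, all toward the footpad. Fibroblast markers summed to 2743 to 3749 CPM in footpad and 93.1 to 427 CPM in flank tumors, with Col3a1 highest, and endothelial markers to 277 to 295 CPM against 148 to 187 CPM, with Vwf highest. Footpad replicate 2 held 665 CPM of keratinocyte and 562 CPM of skeletal muscle markers, and no other tumor exceeded 68.5 CPM of either, with Krt10 and Myh1 highest. Erythroid markers, led by Hbb-bs, spread from 1925 to 36260 CPM, and neutrophil markers, led by S100a9, reached 372 CPM and 179 CPM in footpad replicates 1 and 3 against 7.19 CPM in replicate 2. Schwann cell markers, led by Mbp, ranged from 277 to 290 CPM and from 221 to 295 CPM. Mast cell markers, led by Cpa3, stayed at or below 0.715 CPM, T cell markers, led by Lck, at or below 1.76 CPM, and platelet markers, led by Pf4, at or below 24.7 CPM. The part of these other cells in the results below was not tested. In bulk tumors, fewer cells of a type and less RNA per cell cannot be told apart.

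Promoter sequences of RefSeq on GRCm38.p6 were matched to 8 of the 10 genes, in 9 windows from 250 bases before to 50 bases after a start site, of which 1 each belonged to 7 genes and 2 to Rab27a. They were searched on both strands for CATGTG and CACGTG, E-boxes that the melanocyte factor MITF can bind, for TCATGTG, the longer form that contains CATGTG, and for CATTCC, the sequence bound by the TEAD partners of YAP. The sequences are shown for Rab27a and Mlph, which had the lowest adjusted p of the 10 genes in edgeR though neither was under 0.05. They are also shown for the other 2 genes with a match. Each is printed from the upstream side of the start, 5′ to 3′ on the plus strand, and capitals mark a match.
Rab27a, first start, chr9:73044560-73044809: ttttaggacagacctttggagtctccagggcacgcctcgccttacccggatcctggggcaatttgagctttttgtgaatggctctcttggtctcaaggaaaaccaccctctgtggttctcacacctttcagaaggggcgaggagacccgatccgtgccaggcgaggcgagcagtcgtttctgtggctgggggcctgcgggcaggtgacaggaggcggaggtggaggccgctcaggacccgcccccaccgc
Rab27a, second start, chr9:73063898-73064147: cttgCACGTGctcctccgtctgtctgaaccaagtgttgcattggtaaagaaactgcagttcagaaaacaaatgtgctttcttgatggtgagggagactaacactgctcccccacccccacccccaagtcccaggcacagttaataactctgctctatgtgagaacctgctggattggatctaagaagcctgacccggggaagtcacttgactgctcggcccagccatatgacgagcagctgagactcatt
Mlph, 30 bases around the match, chr1:90915040-90915069: tcaggagtagccCACGTGatctgagccgca
Slc24a5, chr2:125067877-125068126: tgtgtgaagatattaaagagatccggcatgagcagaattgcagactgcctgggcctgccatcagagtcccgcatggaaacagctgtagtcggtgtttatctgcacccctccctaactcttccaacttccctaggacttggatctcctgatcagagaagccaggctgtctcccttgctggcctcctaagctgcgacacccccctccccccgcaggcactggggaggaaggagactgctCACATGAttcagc
Atp7a, chrX:106026974-106027223: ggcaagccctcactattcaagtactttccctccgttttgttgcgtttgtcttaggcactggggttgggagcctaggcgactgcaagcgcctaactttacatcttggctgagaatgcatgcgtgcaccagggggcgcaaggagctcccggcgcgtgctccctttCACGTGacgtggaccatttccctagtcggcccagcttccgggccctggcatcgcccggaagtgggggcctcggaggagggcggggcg
The CACGTG motif stood in 3 of the 9 windows, at base -48 of the Mlph start, base -246 of the second Rab27a start and base -87 of the Atp7a start. The Mlph window and the second Rab27a window both follow a start inside the RefSeq gene, and of the Mlph window only the bases around its match are printed. Of 32851 promoter windows of the same length, 7.15% held it. Slc24a5 held TCATGTG, read on the minus strand as CACATGA, at base -13, and this was the only window of the 9 with CATGTG. The shares over all windows were 3.77% for TCATGTG and 14.2% for CATGTG. The TEAD motif CATTCC was in 0 of the 9 windows and in 14.7% of all. The first Rab27a window held no match. A match describes these letters and is not a measured binding site.

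None of the 10 genes was called different between the sites by edgeR's quasi-likelihood test. A gene was called at a Benjamini-Hochberg adjusted p under 0.05 over the 17210 genes tested and a fold change of 2 or more. By that rule 3.76% of all tested genes were called, 2.89% as higher and 0.872% as lower in footpad tumors, which is a split of 76.8% higher. When libraries were instead scaled to the pigment genes Tyr, Tyrp1, Dct, Pmel and Mlana, the median of all genes moved by 0.48 on the log2 scale and 94.9% of calls were higher. At an unadjusted p under 0.05, 2 of the 10 genes passed, Rab27a and Mlph, beside 25.3% of all genes. DESeq2 gave an adjusted p under 0.05 to 1 of the 10, Rab27a, beside 15.9% of all genes it tested, and with the 2-fold minimum it called 0 of the 10 beside 8.78% of all. Of the 10 log2 fold changes, 5 were above and 5 below 0, with a median of 0.023 beside -0.0042 over all genes tested, and Rab38, Atp7a and Slc24a5 turned to values above 0 with libraries scaled to the pigment genes (0.39, 0.29 and 0.31). All footpad tumors exceeded all flank tumors in Mlph and fell short of them in Rab27a, while the sites overlapped for the other 8 genes. Over all genes, 32.5% were without overlap between the sites, 17.5% with the footpad tumors above and 14.9% with them below.

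**Figure D1:**
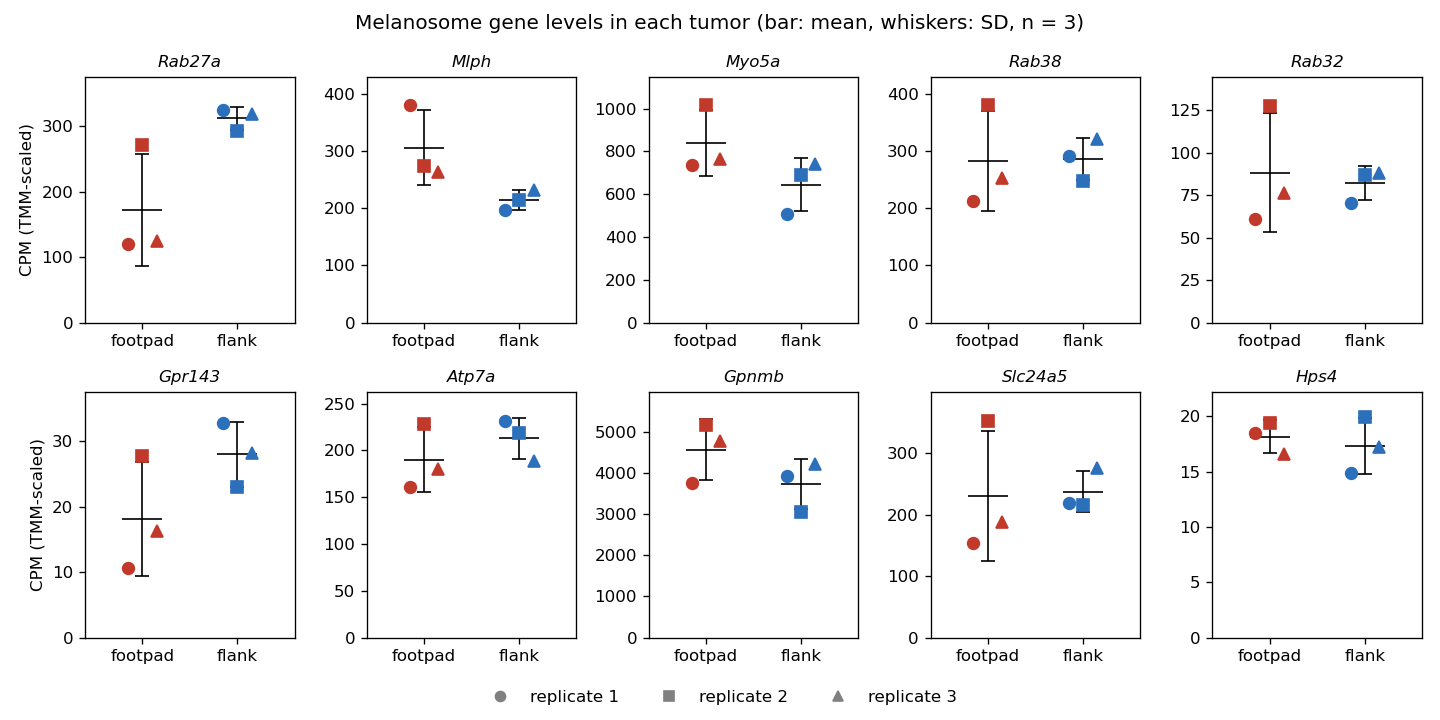
Level of each of the 10 genes in CPM (TMM-scaled) in footpad (red) and flank (blue) tumors, with marker shapes for the replicates, bars for the mean and whiskers for the SD (n = 3). Rab27a is lower in all footpad tumors and Mlph higher, and footpad replicate 2 is the highest footpad tumor in 9 of the 10 panels.

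Rab27a (gene ID 11891, chromosome 9 of GRCm38 from 73044810 to 73097623) encodes the small GTPase that sits on the mature melanosome and recruits its transport partners. Footpad replicates 1, 2 and 3 held 120, 271 and 125 CPM of its RNA. The 3 flank tumors, in the same order of replicates, held 325, 293 and 318 CPM. The flank tumors lay close together, and footpad replicates 1 and 3 fell well under them while footpad replicate 2 came near. The means were 172 ± 85.7 CPM in footpad and 312 ± 16.9 CPM in flank tumors (SD, n = 3), which is 1.82-fold higher in flank tumors. The log2 fold change of footpad over flank was -0.86 (SE 0.31, 95% interval -1.59 to -0.13), with an adjusted p of 0.145 from edgeR and 0.0379 from DESeq2. The value depended on footpad replicate 2, the tumor with keratinocyte and muscle markers. Without it, the log2 fold change was -1.35 (edgeR adjusted p = 0.0160), and Rab27a was then called lower. Over all alternatives its adjusted p ranged from 0.0160 to 0.492.

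Mlph (gene ID 171531, chromosome 1 from 90915024 to 90951142) encodes melanophilin, the linker between RAB27A and the motor. Its levels were 381, 273 and 263 CPM for footpad replicates 1, 2 and 3, compared with 196, 215 and 231 CPM for the flank replicates. Every footpad tumor was above every flank tumor, and footpad replicate 1, which had the least Rab27a, had the most Mlph. The means were 306 ± 65.2 and 214 ± 17.6 CPM (SD, n = 3), 1.43-fold higher in footpad tumors. The log2 fold change was 0.51 (SE 0.18, 95% interval 0.095 to 0.93), with an adjusted p of 0.132 from edgeR and 0.0513 from DESeq2, and a range from 0.0513 to 0.330 over the alternatives. The value rested in part on footpad replicate 1, without which it was 0.33.

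Myo5a (gene ID 17918, chromosome 9 from 75069799 to 75223688) encodes the actin motor of the complex. Footpad tumors 1 to 3 measured 735, 1017 and 763 CPM, and flank tumors 1 to 3 measured 507, 689 and 740 CPM. The sites overlapped, since footpad replicate 1 lay under flank replicate 3. The log2 fold change of 0.38 (SE 0.21, 95% interval -0.11 to 0.87) did not pass the threshold (adjusted p = 0.304 from edgeR). Without footpad replicate 2 it was 0.22, and without flank replicate 1 it was 0.23.

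The partners of the transport complex were also set against each other within each tumor, as 3 of 4 ratios chosen after the values were seen; the other ratio, of Rab38 to Rab32, follows with those genes. The ratio of Mlph to Rab27a, of CPM values not divided by length, came to 3.18, 1.01 and 2.11 for footpad tumors 1, 2 and 3. For flank tumors 1, 2 and 3 it came to 0.604, 0.733 and 0.727. The footpad mean was above the flank mean by 1.46 on the log2 scale or 2.76-fold. The lack of overlap follows from that of Mlph and Rab27a themselves, so no test is given. Without footpad replicate 1 the log2 difference was 1.09, and without footpad replicate 2 it was 1.92. The ratio of Myo5a to Rab27a was 6.14, 3.76 and 6.12 in footpad tumors and 1.56, 2.36 and 2.33 in flank tumors, 2.55-fold higher in footpad tumors and without overlap. Rab27a alone was already without overlap, which carries into this ratio, so no test is given for it either. Both ratios share Rab27a and are therefore not independent of each other. Mlph relative to Myo5a overlapped between the sites, with a log2 difference of 0.12 (exact permutation p = 0.8). Its sign turned without footpad replicate 1, to -0.14.

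**Figure D2:**
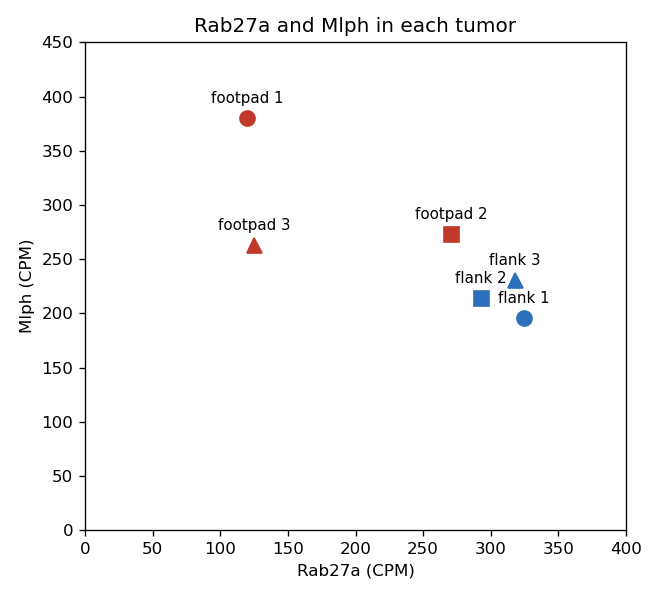
Rab27a (x axis) against Mlph (y axis) in CPM in each of the 6 tumors, footpad in red and flank in blue. The flank tumors sit together at 293 to 325 CPM of Rab27a, footpad replicates 1 and 3 lie at lower Rab27a, and footpad replicate 2 lies between them.

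RAB32 and RAB38 are related GTPases that direct tyrosinase and other cargo to maturing melanosomes, and HPS4 is a subunit of BLOC-3, which activates both. Rab38 (gene ID 72433, chromosome 7 from 88430273 to 88491572) measured 212, 381 and 253 CPM in the footpad series and 292, 248 and 320 CPM in the flank series, each in the order of replicates 1 to 3. The footpad tumors enclosed the flank tumors, with the lowest and the highest level of the series. The log2 fold change was -0.022 (95% interval -0.56 to 0.52, adjusted p = 0.963 from edgeR).

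Rab32 (gene ID 67844, chromosome 10 from 10545039 to 10558207) measured 61.0, 128 and 76.3 CPM in footpad tumors 1 to 3, compared with 70.7, 87.2 and 88.4 CPM in flank tumors 1 to 3. Its log2 fold change was 0.11 (95% interval -0.52 to 0.73, adjusted p = 0.837 from edgeR), which turned to -0.26 when footpad replicate 2 was left out. As for Rab38, footpad replicate 2 was the highest and footpad replicate 1 the lowest of the 6 tumors. The Rab38 to Rab32 ratio ranged from 2.98 to 3.48 in footpad and 2.84 to 4.13 in flank tumors, and overlapped (log2 difference -0.10, exact permutation p = 0.6), turning to 0.021 without flank replicate 1.

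Hps4 (gene ID 192232, chromosome 5 from 112342983 to 112378424) lay within a narrow range, at 18.5, 19.4 and 16.5 CPM in footpad and 14.9, 19.9 and 17.2 CPM in flank tumors. Its log2 fold change was 0.069 (95% interval -0.32 to 0.46, adjusted p = 0.830 from edgeR). It turned to -0.030 when flank replicate 1 was left out. The gene overlaps Srrd, which was at 6.28 CPM, and Gm6583 and Gm20636, which had almost no reads, and how the counting treated strand is not given in the sources used here.

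GPR143 and GPNMB are melanosome membrane proteins. Gpr143, the ocular albinism receptor that limits melanosome size (gene ID 18241, chromosome X from 152781921 to 152808651), measured 10.6, 27.7 and 16.2 CPM in footpad tumors 1 to 3, compared with 32.8, 23.0 and 28.2 CPM in flank tumors 1 to 3. Footpad replicates 1 and 3 lay under all flank tumors and footpad replicate 2 lay among them, whereas in Rab27a footpad replicate 2 was also under the flank tumors. The means were 18.2 ± 8.74 and 28.0 ± 4.93 CPM (SD, n = 3) and the log2 fold change was -0.62 (SE 0.33, 95% interval -1.40 to 0.16, adjusted p = 0.287 from edgeR). When footpad replicate 2 was left out the log2 fold change was -1.06 (edgeR adjusted p = 0.0571). Leaving out footpad replicate 1 gave -0.35.

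Gpnmb (gene ID 93695, chromosome 6 from 49036518 to 49058182), a glycoprotein of late melanosomes that macrophages also express, had the highest level of the 10 genes, also per length. Its footpad values were 3745, 5172 and 4778 CPM for replicates 1 to 3, and its flank values were 3931, 3039 and 4207 CPM. Footpad replicates 2 and 3 were the highest of the series, but footpad replicate 1 lay inside the flank range (log2 fold change 0.29, SE 0.22, 95% interval -0.22 to 0.81, adjusted p = 0.440 from edgeR). Without footpad replicate 2 it was 0.19, and without flank replicate 2 it was 0.17. Beside it, the macrophage list had 12 of 12 genes above 0, 1 of them with an adjusted p under 0.05 from edgeR (Cd68), and summed to 253 to 284 CPM in footpad and 36.2 to 189 CPM in flank tumors, with Lyz2 highest. The part of macrophages in the Gpnmb level was not tested.

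Of the 2 transporters, the protein of Atp7a moves copper, the cofactor of tyrosinase, into maturing melanosomes, and Slc24a5 encodes a cation exchanger needed for pigment formation. Atp7a (gene ID 11977, chromosome X from 106027224 to 106128161) had footpad values of 161, 229 and 180 CPM and flank values of 231, 218 and 189 CPM, which overlapped (log2 fold change -0.16, 95% interval -0.56 to 0.24, adjusted p = 0.587 from edgeR). Slc24a5 (gene ID 317750, chromosome 2 from 125068127 to 125088677) had footpad values of 154, 352 and 188 CPM and flank values of 220, 217 and 276 CPM. Its mean was almost the same at both sites, 231 ± 106 and 237 ± 33.3 CPM (SD, n = 3), but the footpad tumors spread more widely (log2 fold change -0.038, 95% interval -0.75 to 0.67, adjusted p = 0.951 from edgeR). Slc24a5 overlaps Myef2, which was at 106 CPM with a log2 fold change of -0.75 (adjusted p = 0.0506 from edgeR), and reads of the shared stretch could have been counted for either gene.

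**Figure D3:**
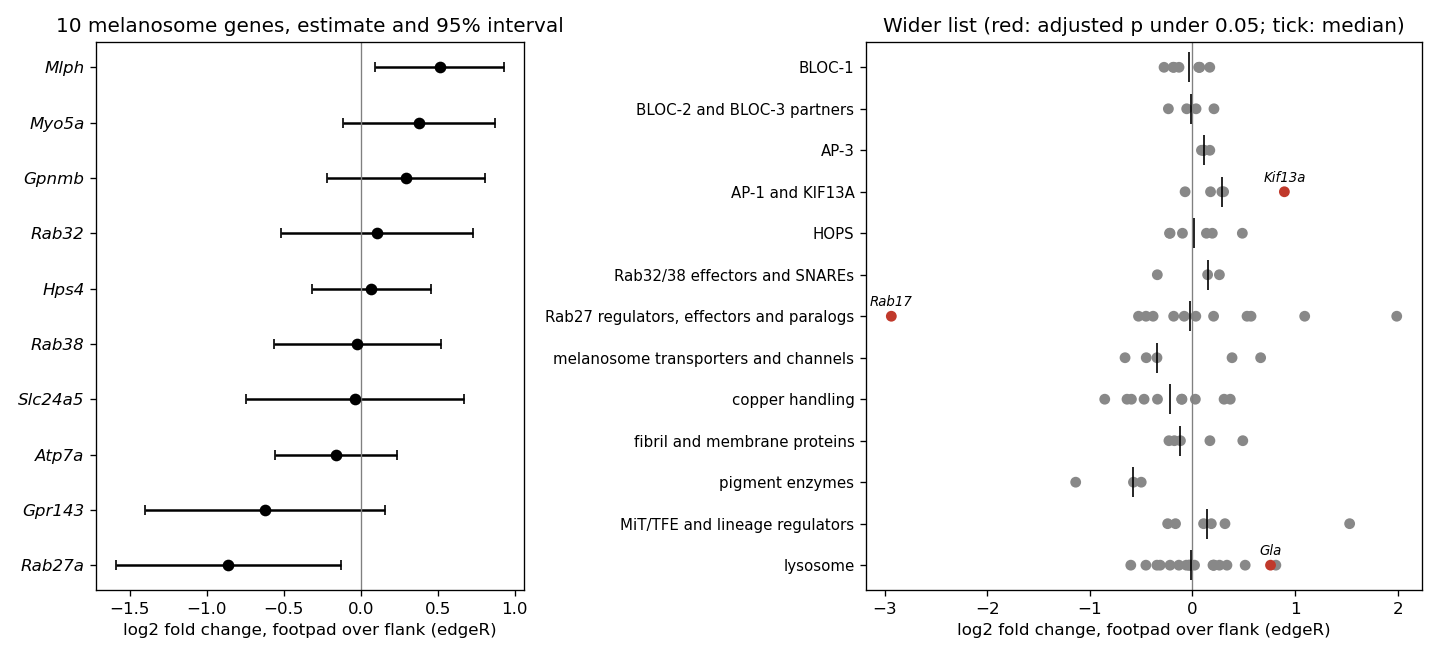
Left, edgeR's log2 fold change of footpad over flank tumors for the 10 genes with 95% intervals. Right, the same quantity for the tested genes of each group of the wider list, with the group median as a tick. The intervals of Rab27a and Mlph leave out 0, and Kif13a, Gla and Rab17 are the 3 genes of the wider list with an adjusted p under 0.05.

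Compared per length, in the FPKM values of the authors, the order of the genes over the 6 tumors was Gpnmb with a mean of 973 FPKM, Rab38 with 161, Slc24a5 with 108, Rab27a with 67.7, Mlph with 55.7, Myo5a with 50.7, Rab32 with 37.4, Atp7a with 21.9, Gpr143 with 12.6 and Hps4 with 4.96 FPKM. Only Gpnmb had a range, 776 to 1279 FPKM, that lay clear of the next gene. Within single tumors the order was firmer, and each gene exceeded the next in all 6 tumors except at 2 places. Rab27a was above Mlph in 4 of 6 tumors and Mlph above Myo5a in 3 of 6.

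The order of the tumors recurred across the 10 genes. Among the footpad tumors, replicate 2 was the highest for 9 of the 10 genes, all but Mlph, and 8 genes had the order replicate 2, replicate 3, replicate 1. Footpad replicate 2 was the highest of all 6 tumors for 5 genes and footpad replicate 1 the lowest for 6. The level in footpad replicate 2 over the mean of footpad replicates 1 and 3 was 2.21 for Rab27a, 2.07 for Gpr143, 2.06 for Slc24a5, 1.86 for Rab32 and 1.63 for Rab38. It was 1.36 for Myo5a, 1.34 for Atp7a, 1.21 for Gpnmb and 1.11 for Hps4, and 0.849 for Mlph. For Mitf, the master regulator of the lineage, the same measure was 1.97, and for Sox10, an upstream regulator, 0.869. Among the pigment genes it was 2.76 for Tyr, 1.64 for Pmel, 1.59 for Dct, 1.49 for Tyrp1 and 1.15 for Mlana. The share of reads from hemoglobin genes ran the other way, with 3.39%, 0.399% and 1.77% in footpad tumors 1, 2 and 3, and their part was not tested. The log2 SD was larger in footpad than in flank tumors for 7 of the 10 genes. These counts were not taken over all genes, so whether the order or the spread is particular to the 10 genes was not tested.

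Likeness between the genes was measured as Pearson's r of log2 CPM over the 6 tumors, which share library, depth and site with every pair, and is given as a description. Of the 45 pairs, 30 were above 0, 6 above 0.8 and 3 below -0.7. The highest pair was Rab38 and Slc24a5 (r = 0.97, Spearman's rho = 0.94), and Rab27a with Gpr143 was at r = 0.93. The lowest was Mlph with Gpr143 (r = -0.85, rho = -0.71), and Mlph with Rab27a was at r = -0.79. Mlph was below 0 in 6 of its 9 pairs. With Mitf, r was 0.92 for Slc24a5, 0.91 for Rab32, 0.85 for Rab38 and 0.83 for Gpr143, and -0.61 for Mlph. The rho with Mitf was weaker for each, at 0.83, 0.89, 0.66, 0.49 and -0.26 in the same order. With Sox10, r was -0.96 for Atp7a, -0.87 for Gpr143, -0.78 for Rab27a, -0.61 for Rab38 and 0.78 for Mlph. With Tyr, r was 0.95 for Gpr143 (rho = 0.94), 0.92 for Rab27a (rho = 0.83) and -0.83 for Mlph (rho = -0.60). Among all tested genes outside the 10, profiles most like the mean centred log2 CPM of the 10 genes included those of Ptges2 (r = 0.99), Tmem147, Chsy3 and Get4, each with a rho of 1 over the 6 tumors.

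**Figure D4:**
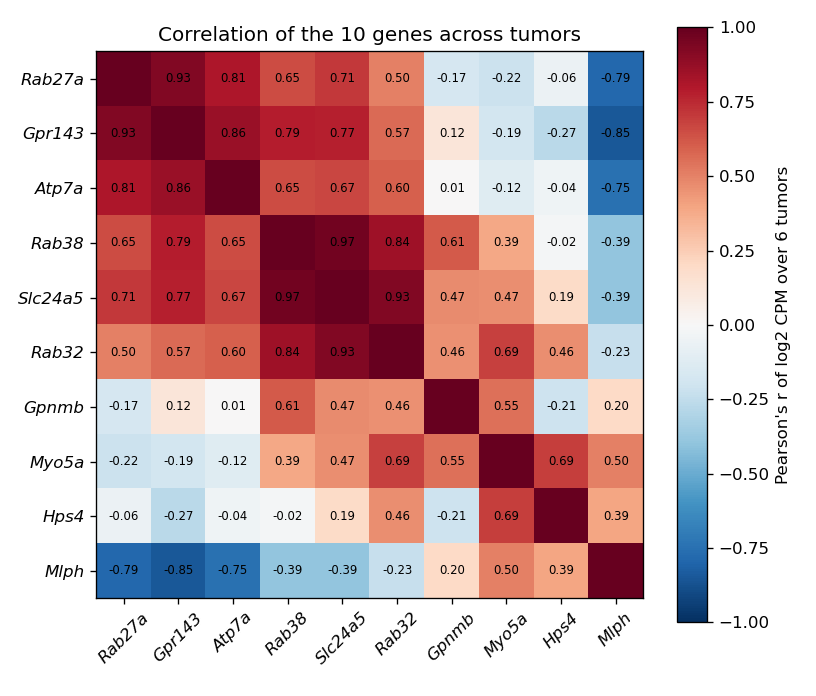
Pearson's r of log2 CPM over the 6 tumors for each pair of the 10 genes, from -1 (blue) to 1 (red). Rab27a, Gpr143, Atp7a, Rab38, Slc24a5 and Rab32 form a red block, and Mlph is blue against all of them.

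To relate the 10 genes to the pigment gene RNA of each tumor, their CPM was divided by the summed CPM of Tyr, Tyrp1, Dct, Pmel and Mlana. That sum came to 9156, 16699 and 11738 CPM for footpad tumors 1 to 3, compared with 24047, 13311 and 15414 CPM for flank tumors 1 to 3, with means of 12531 ± 3833 and 17591 ± 5690 CPM (SD, n = 3). The tumors of the sites overlapped in it (log2 difference -0.49, two-sided exact permutation test, p = 0.3). Sox10 had means of 177 CPM in footpad and 164 CPM in flank tumors (log2 fold change 0.11, adjusted p = 0.650 from edgeR). Whether the ratio to the pigment sum stands for a level per pigment cell was not tested. On this scale 8 of the 10 genes had a higher mean log2 ratio in footpad tumors and 2, Rab27a and Gpr143, a lower one. Of the 16252 tested genes with reads in every tumor, 86.5% had a higher mean ratio in footpad tumors, with a median log2 difference of 0.47, so a count of 8 of 10 is not particular to these genes. Mlph (log2 difference 0.98), Myo5a (0.87), Gpnmb (0.78) and Rab38 (0.43) lay without overlap above the flank tumors (exact permutation p = 0.1 for each, the lowest value possible with 3 tumors against 3). The difference of Rab38 was under the all-gene median of 0.47, and those of Mlph, Myo5a and Gpnmb were above it. Over all genes tested, 21.2% were without overlap on this scale, 19.5% above and 1.74% below. Rab27a was at -0.48 (exact permutation p = 0.2) and overlapped. Flank replicate 1 had the largest pigment sum, and without it the differences were 0.67 for Mlph, 0.45 for Myo5a, 0.58 for Gpnmb and 0.20 for Rab38, while that of Rab27a was -0.70. Without footpad replicate 1, Mlph was at 0.61.

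**Figure D5:**
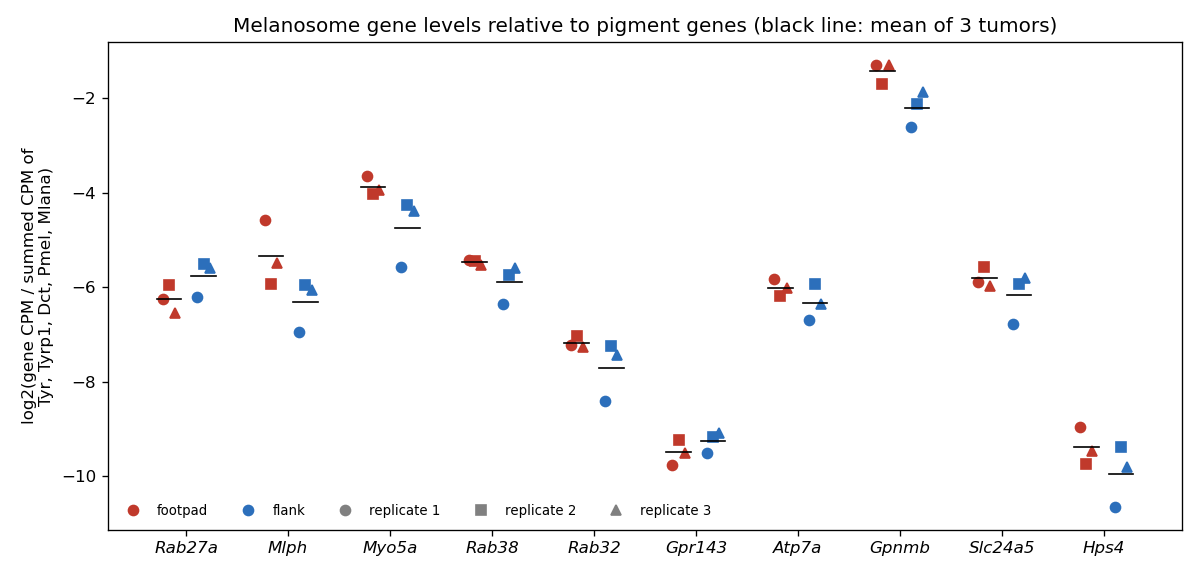
Log2 of the CPM of each of the 10 genes over the summed CPM of 5 pigment genes in each tumor, with the mean of 3 tumors as a line, footpad in red and flank in blue. Flank replicate 1 (blue circle) is the lowest flank tumor for each of the 10 genes, and Rab27a and Gpr143 are the 2 genes with a lower footpad mean.

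A wider list of melanosome and lysosome genes, 98 by name, gave the setting. Of these, 96 were found and 91 tested, and 1 was called, Rab17, beside the 3.76% of all genes. The median log2 fold change was 0.020, with 46 genes above and 45 below 0, beside a median of -0.0042 over all genes. By adjusted p alone 3 genes passed in edgeR, 2 higher and 1 lower, beside 4.87% of all genes tested. Rab17, a small GTPase of recycling endosomes that was listed with Rab27a for its part in melanosome release, had 1.93, 1.12 and 1.51 CPM in footpad tumors 1 to 3, compared with 22.0, 5.51 and 7.32 CPM in flank tumors 1 to 3. Every footpad tumor was far under every flank tumor (log2 fold change -2.93, SE 0.56, adjusted p = 0.0352 from edgeR), and the call was lost without any 1 of the 3 footpad tumors or flank replicate 3, with adjusted p values between 0.0573 and 0.131 from edgeR and log2 fold changes of -3.14, -2.75, -2.93 and -3.18. Without flank replicate 1, the tumor with the most Rab17, the call was kept at a log2 fold change of -2.08 (adjusted p = 0.0373 from edgeR).

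Kif13a, the kinesin that with the AP-1 adaptor carries recycling endosomes to melanosomes, was at 72.2, 70.5 and 73.8 CPM in footpad and 29.9, 41.7 and 44.8 CPM in flank tumors. The footpad tumors were nearly equal and all above the flank tumors (log2 fold change 0.90, SE 0.17, adjusted p = 0.0340 from edgeR), below the 2-fold minimum of a call. Gla, the lysosomal enzyme alpha-galactosidase A, was at 35.8, 32.8 and 34.1 CPM against 21.8, 18.5 and 20.4 CPM (log2 fold change 0.76, SE 0.13, adjusted p = 0.0269 from edgeR). No other gene of the list had an adjusted p under 0.05 in edgeR.

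Among the sorting complexes, the largest differences were -0.28 for Dtnbp1 of BLOC-1 (8 genes tested, median -0.036), -0.23 for Hps3 of BLOC-2 (4 genes of BLOC-2 and BLOC-3, median -0.011) and 0.17 for Ap3s1 of AP-3. The 5 AP-3 genes were all above 0, with a median of 0.11 and adjusted p values of 0.394 to 0.689 from edgeR. Over all 17210 genes tested, 8551 were above and 8659 below 0. Vps11 of HOPS, the tethering complex of lysosomes, was at 0.49 and Stx12, a SNARE of the RAB32 and RAB38 route, at -0.34. Rab27b, the close relative of Rab27a, stayed at or below 2.44 CPM in every tumor, and Myrip, which joins RAB27A to myosin VIIa in other pigment cells, at or below 0.367 CPM. The other transporters included Mfsd12, a cysteine importer of the organelle, with 19.9, 17.6 and 20.9 CPM in footpad and 13.1, 12.8 and 11.0 CPM in flank tumors (log2 fold change 0.66, adjusted p = 0.0578 from edgeR). Of 10 copper genes, 7 were below 0, with Atp7b, the relative of Atp7a, lowest at -0.85 (adjusted p = 0.123 from edgeR). Bace2, a protease that processes the PMEL fibril protein, was at 0.49 (adjusted p = 0.333 from edgeR). It had 160, 353 and 183 CPM in footpad and 176, 157 and 162 CPM in flank tumors, which overlapped.

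The 3 melanin enzymes were all below 0, and none passed. Tyr, tyrosinase, had 360, 1124 and 454 CPM in footpad tumors 1 to 3, compared with 2191, 1022 and 1053 CPM in flank tumors 1 to 3 (log2 fold change -1.14, SE 0.49, adjusted p = 0.198 from edgeR). The sites overlapped, since footpad replicate 2 lay above flank replicates 2 and 3. Of the regulators of melanosome and lysosome genes, Tfec had the largest difference, 1.53 at levels of 1.51 CPM or less (adjusted p = 0.145 from edgeR), and Mitf was at -0.17 (adjusted p = 0.768 from edgeR). Of the 19 lysosome genes tested, 9 were above 0, and Ctsb, cathepsin B, had the largest difference, 0.81 (adjusted p = 0.132 from edgeR). The part of macrophages in the Ctsb level was not tested.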

How the data were processed

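RNA of 3 footpad and 3 flank B16F10 tumors was analysed, 1 library each, grouped by the sample labels. The authors checked reads with FastQC 0.11.7, trimmed them with Trimmomatic and aligned them to mm10 with HISAT2 2.1.0, and deposited whole read counts per gene and FPKM values, which correct for transcript length and library size. Which program counted the reads, and how it treated strand and reads shared by overlapping genes, is not given in the sources used here, although the library kit was a stranded one.

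The 10 genes and all lists were chosen with earlier results of these data known. Counts were fitted in R 4.3.3 with edgeR 4.0.16 (TMM, filterByExpr at a minimum count of 10, glmQLFit and glmQLFTest, Benjamini-Hochberg adjustment over the 17210 genes tested). A call needed an adjusted p under 0.05 and at least a 2-fold change. The SE is the log2 fold change divided by the square root of F. The 10 genes were all named with every tumor's value. From the wider list, called genes and the gene with the largest difference in each group were named, and from each marker list the gene with the highest mean CPM. The 5 genes most like the mean profile, of which 1 is not reported here, and the highest and lowest pair were also named, and other genes were named after their values were seen. For correlations, a prior count of 1 was added before taking log2 CPM. Ratios were compared with two-sided exact permutation tests over tumors in scipy 1.17.1.

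A count of 3 reads equals 0.0438 to 0.0673 CPM, and the common coefficient of biological variation was 0.338, so spread between tumors and not counting limited precision. Tumors of a site differed beyond sampling noise. Alternatives were DESeq2 1.42.0, other normalizations and filters, limma 3.58.1 on log2(FPKM + 1) and log2(FPKM + 0.1), scaling to pigment genes, the replicate number as a block, and each tumor left out. The fits were tested on simulated data. Figures were drawn with matplotlib 3.10.9.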

Additional observations from a re-analysis of the deposited data

How the results depend on the processing

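Of the 10 genes, Rab27a, Mlph, Myo5a, Gpr143 and Gpnmb kept their direction under the 15 alternatives tried for each. Rab27a had an adjusted p under 0.05 with DESeq2 (log2 fold change -0.86) and without footpad replicate 2 (-1.35), and ranged from -1.35 to -0.66 when a tumor was left out. Values near 0 changed sign. Scaled to the pigment genes, Rab38 was at 0.39, Atp7a at 0.29 and Slc24a5 at 0.31. Left-out tumors moved Rab38 from -0.30 to 0.15, Slc24a5 from -0.48 to 0.19, Rab32 to -0.26 without footpad replicate 2, and Hps4 from -0.030 without flank replicate 1 to 0.18 without flank replicate 2. The signs of Rab38 and Slc24a5 turned without footpad replicate 1 (0.15 and 0.19), footpad replicate 3 (0.049 and 0.091) and flank replicate 3 (0.064 and 0.083). The number of the 10 genes called lower was 0 to 1 and higher 0.

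Over all genes, the main counts of 497 higher and 150 lower were 1154 and 352 with DESeq2, 1146 and 61 scaled to the pigment genes, and 271 and 95 with limma on log2(FPKM + 1). By adjusted p alone 248 were lower. Leaving out a tumor gave 24 to 651 higher and 4 to 204 lower genes, lowest without footpad replicate 3. In the wider list, 1 gene was called higher when scaled to the pigment genes, and left-out tumors gave 0 to 1 higher and 0 to 1 lower. The cause of these shifts was not tested.

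The labels do not say which tumors shared a mouse, so the numbers were not taken to pair the tumors. Deviations of same-numbered tumors from their site means had r = 0.054, -0.097 and -0.11 for replicates 1, 2 and 3. The highest r between the sites was 0.26, for footpad replicate 2 and flank replicate 3. With 3 tumors per site, these correlations cannot show whether tumors shared a mouse, as the study's simultaneous grafts make possible. With the replicate block edgeR called 0 higher and 0 lower genes (2125 and 1426 at an unadjusted p under 0.05), 0 of the 10 genes and 0 lower genes of the wider list. Rab27a was then at -0.97 (adjusted p = 0.170 from edgeR) and Rab17 at -2.69 (adjusted p = 0.0694 from edgeR).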
